A study of Mus musculus with 48 samples.

Results

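The transcriptional response of the wild-type (WT) mouse liver to a high-fat diet (HFD) was examined in 16 male C57BL/6J mice, 8 fed the HFD and 8 fed a control diet (CTRL), out of the 48 mice of 6 groups in the series. HFD carried 60% fat, mostly lard, and CTRL was a low-fat diet of purified ingredients; the labels give a feeding period of 12 weeks and an age of 20 weeks, whereas the text of the study states a shorter feeding period. All mice were kept at thermoneutrality and killed in the fed state. The other 4 groups of 8, used here for comparison, were mice without PPARα in hepatocytes (Ppara hep-/-, floxed Ppara with Cre recombinase under the albumin promoter) and mice without PPARα in any cell (Ppara-/-), each fed CTRL or HFD. WT mice came from an outside supplier, whereas both mutant lines were bred in the laboratory's own facility, so a difference between a mutant line and WT may also carry that of origin. Whole-liver RNA of each mouse was labelled with Cy3 and hybridised to 1 Agilent array. Mice were chosen by genotype and diet alone, and all 22029 gene names with a probe above background were compared. Of these names 17330 were gene symbols and the others named transcripts, loci or probes. All are called genes here, also in the shares of all genes.

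Peroxisome proliferator-activated receptor α (PPARα) is a nuclear receptor that binds fatty acids and, together with RXR, switches on genes of fatty acid uptake, activation and oxidation in peroxisomes and mitochondria. Cholesterol synthesis is driven by SREBP-2, a membrane-bound factor that is released to the nucleus when endoplasmic reticulum (ER) sterol is low. Fatty acid synthesis is driven by SREBP-1c and ChREBP in response to insulin and carbohydrate.

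Levels are given as signal, the log2 of the quantile-normalised intensity of the gene's brightest probe, and differences as log2 change, HFD minus CTRL, from a weighted limma model with wash batch as a term. A gene was called up-regulated or down-regulated at a Benjamini-Hochberg adjusted p of 0.05 or less. WT arrays had a median spot intensity of 61 to 82.5 and between 30956 and 35153 spots well above background, with no saturated spots among the probes used. Each diet had 4 mice in wash batch 1 and 4 in wash batch 2. Hepatocyte markers were strong in every WT liver: their summed log2 signal lay between 21.5 and 21.7 in CTRL and between 21.6 and 21.7 in HFD mice. The targeted gene was read by 2 Ppara probes. The brighter one had a median signal of 14.54 (14.03 to 15.07) in WT CTRL, against 14.11 (13.26 to 14.28) in Ppara hep-/- CTRL and 13.92 (13.53 to 14.09) in Ppara-/- CTRL mice. The other had 12.86 (12.36 to 13.24), 12.80 (11.77 to 12.95) and 11.81 (11.36 to 11.87) in these groups, nearly the same median in Ppara hep-/- as in WT mice. Signal remained in the mutants, and whether either probe lies in the deleted part of the gene is not known here, so these probes do not check the genotype labels.

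In all, 5 of the 16 WT mice stood apart. Principal components of the WT arrays were taken after the mean of each diet within each wash batch was subtracted. They therefore describe variation among mice of the same diet and batch, not the share of variance due to diet. On the first component (39.4% of the remaining variance), CTRL mice 6 and 8 and HFD mouse 6 had scores of 66.7, 41.0 and 51.8, while the other 13 lay between -29.3 and 19.2. Hsd3b5, a hepatocyte steroid dehydrogenase with male-biased expression, had a signal of 5.92, 11.32 and 7.60 in these mice and 10.47 to 15.24 in the others. On the second component (23.4%), HFD mice 1 and 2 scored 41.1 and 55.1 and the others at most 15.6. The acute-phase gene Lcn2 had a signal of 17.30 and 17.63 in these 2 mice against 8.59 to 15.41 in the rest. The opposite end of this component held genes that HFD changed, Cfd, Acot3, Cyp2b9, Acot1 and Cidea among them, so these 2 mice were set apart in part by the response described below, and values without them are a description. The limma array weights of these 5 mice were between 0.208 and 0.556, and those of the other WT mice between 0.727 and 1.87. Averaged over 43 collagen and matrix genes, CTRL mice 6 and 8 and HFD mouse 6 lay at 1.08, 0.79 and 1.05 on the log2 scale above the CTRL mean of their wash batch. Of 145 called genes named here, 139 were called without HFD mice 1 and 2, 140 without the other 3 and 141 without all 5.

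HFD changed the level of 4287 of 22029 genes (19.5%), 2053 upwards (9.32%) and 2234 downwards (10.1%). Most changes were small. The median absolute log2 change of called genes was 0.32, and 137 genes rose and 59 fell by at least 1 on the log2 scale, that is 2-fold. Within wash batch 1, with 4 mice per diet, 2702 genes were called, and within wash batch 2 440. Without array weights 2856 genes were called, of which 2730 were among the 4287, and without the 5 mice described above 4073 of the 4287 were still called. In whole liver, fewer cells of a type and less RNA per cell cannot be told apart.

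**Figure D1:**
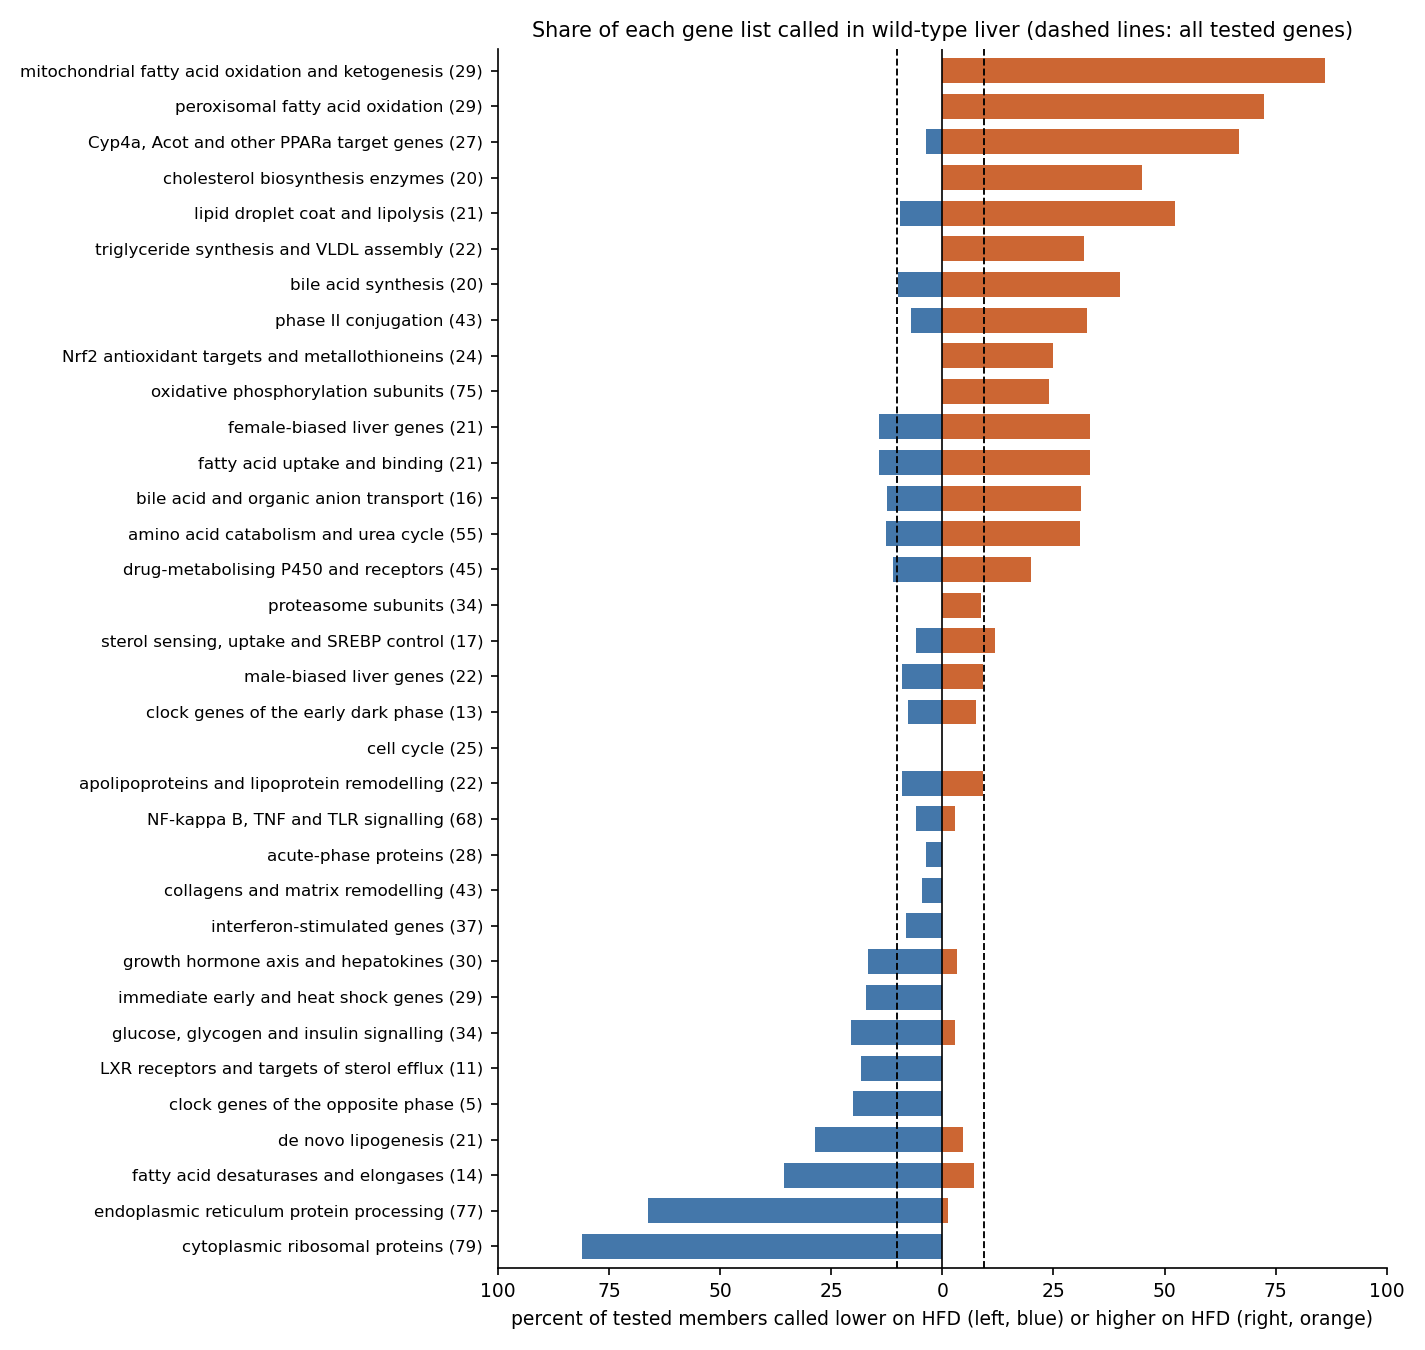
Share of the tested members of each of 34 gene lists that were up-regulated (right, percent) or down-regulated (left, percent) by HFD in WT liver at an adjusted p of 0.05 or less; the dashed lines mark the shares over all tested genes, 9.32% up and 10.1% down. Fatty acid oxidation, PPARα target and cholesterol synthesis genes lie to the right, and ribosomal protein and ER protein-processing genes to the left.

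Genes of fatty acid oxidation rose together. Of 29 tested genes of mitochondrial β-oxidation and ketogenesis, 25 were up-regulated and 0 down-regulated, with a median log2 change of 0.55 against 0.00 over all tested genes. Of 29 genes of peroxisomal oxidation, 21 were up-regulated and 0 down-regulated (median 0.41). Of 27 known PPARα target genes, among them the Cyp4a and Acot families, 18 were up-regulated and 1, Ppargc1a, encoding the coactivator PGC-1α, was down-regulated (median 0.66), the latter not without array weights (adjusted p = 0.0506). Ppara itself rose from a median signal of 14.54 in CTRL to 15.07 (14.65 to 15.24) in HFD mice (log2 change 0.52 ± 0.10 SE, adjusted p = 0.000186), and the second probe gave 0.48 ± 0.09.

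The ω-hydroxylases of the Cyp4a family, which start the oxidation of fatty acids at the methyl end, were among the genes with large changes. Cyp4a14 signal was 5.27 to 7.15 (median 5.94) in CTRL and 5.49 to 9.23 (median 8.39) in HFD mice, a log2 change of 2.56 ± 0.42 (adjusted p = 2.54e-05), and the probe was well above background on 4 of 8 CTRL and 6 of 8 HFD arrays. Cyp4a10 signal was 8.58 to 11.82 (median 10.96) in CTRL and 9.47 to 13.42 (median 13.04) in HFD mice, a log2 change of 2.50 ± 0.57 (adjusted p = 0.00133). The diets overlapped for both genes, with HFD mice 1 and 2 inside the CTRL range and the other 6 above it. Without these 2 mice the changes were 2.89 and 2.85, and without all 5 Cyp4a10 changed by 3.09. Cyp4a31, whose sequence is so close to that of Cyp4a10 that probes may not separate them, changed by 2.62 ± 0.56.

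Vnn1, encoding the pantetheinase vanin 1, had a signal of 8.41 to 10.22 (median 9.61) in CTRL and 9.04 to 12.34 (median 11.86) in HFD mice (log2 change 2.39 ± 0.38, adjusted p = 1.93e-05). The acyl-CoA thioesterases, which release free fatty acids from their CoA esters, showed the same order of change: Acot3 2.32 ± 0.60, Acot2 2.04 ± 0.37, Acot1 1.91 ± 0.50 and Acot4 1.21 ± 0.27. Acot1 signal was 9.65 to 12.83 (median 11.37) in CTRL and 8.52 to 13.88 (median 13.17) in HFD mice. In Acot1, 6 of the 8 HFD mice were above all but the highest CTRL mouse, and HFD mice 1 and 2, at 9.89 and 8.52, were below the CTRL median. Without array weights Acot1 to Acot4 were not called (adjusted p between 0.0717 and 0.233), and without HFD mice 1 and 2 their changes were larger, from 1.52 for Acot4 to 2.95 for Acot3. Acot genes are near-identical neighbours, so their probes may share signal. Aldh3a2, encoding a fatty aldehyde dehydrogenase, rose by 1.34 ± 0.25 and Retsat, encoding retinol saturase, by 1.20 ± 0.25.

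In peroxisomes, Acaa1b, encoding the thiolase of the last step, had a signal of 14.20 to 15.48 (median 14.89) in CTRL and 13.67 to 16.57 (median 16.43) in HFD mice (log2 change 1.37 ± 0.28). Pex11a, needed for peroxisome division, rose by 1.25 ± 0.21 and Crot, which exports shortened acyl chains as carnitine esters, by 1.03 ± 0.17. Abcd2, a transporter of very long-chain acyl-CoA, rose by 1.02 ± 0.26 but was not called without array weights (adjusted p = 0.181). The peroxisomal protease gene Lonp2 separated the diets fully, with 13.93 to 14.64 (median 14.16) in CTRL and 14.68 to 15.08 (median 14.85) in HFD mice (0.74 ± 0.09, adjusted p = 5.99e-07).

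In mitochondria, Eci1, encoding an enoyl-CoA isomerase, had a signal of 14.31 to 14.69 (median 14.53) in CTRL and 14.25 to 15.54 (median 15.36) in HFD mice (0.84 ± 0.11, adjusted p = 7.05e-07). All but 1 HFD mouse were above the CTRL median. Acat1, encoding the acetoacetyl-CoA thiolase, rose by 0.82 ± 0.11 and Slc25a20, encoding the carnitine-acylcarnitine carrier, by 0.78 ± 0.14. Cpt1a, which controls the entry of long-chain fatty acids into mitochondria, rose by 0.55 ± 0.15. Crat, the carnitine acetyltransferase, rose by 1.22 ± 0.32, and neither Crat (adjusted p = 0.189) nor Cpt1a (adjusted p = 0.0541) was called without array weights.

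Not every PPARα target followed. Angptl4, encoding a secreted inhibitor of lipoprotein lipase, had a change of 0.51 ± 0.25 (adjusted p = 0.149) and Creb3l3, encoding a hepatic membrane-bound transcription factor, of 0.22 ± 0.08 (adjusted p = 0.0523). The hepatokine gene Fgf21 had a signal of 7.24 to 10.23 (median 8.90) in CTRL and 6.30 to 9.69 (median 8.65) in HFD mice, a change of -0.11 ± 0.43 (adjusted p = 0.899), positive in wash batch 2 (0.70) and negative in wash batch 1 (-0.67). Fabp1, the main hepatic fatty acid-binding protein, differed by 0.07 ± 0.06 (adjusted p = 0.43).

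HFD mice 1 and 2 did not share this response. Averaged over the 27 PPARα targets, the deviation from the CTRL mice of the same wash batch was -0.51 in HFD mouse 1 and -0.75 in HFD mouse 2, against 0.83 to 1.35 in the other 6 HFD mice and -0.55 to 0.46 in CTRL mice. For mitochondrial oxidation the values were -0.17 and -0.21 in these 2 mice, 0.51 to 0.79 in the other 6 and -0.23 to 0.21 in CTRL mice. The same 2 mice had the highest acute-phase averages, 1.10 and 1.82, of the 16 WT mice. Without them, a choice that is not independent of these genes, 28 of 29 mitochondrial, 23 of 29 peroxisomal and 19 of 27 PPARα target genes were up-regulated, against 10.6% of all genes. Without array weights the counts were 19, 16 and 13, against 6.35% of all genes. The lowest counts over all alternatives were 8, 6 and 1. That of 1 PPARα target came from the 16 WT arrays alone without array weights, where 953 of 22029 genes were called in either direction. Within wash batch 2, 6 PPARα targets were up-regulated.

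**Figure D2:**
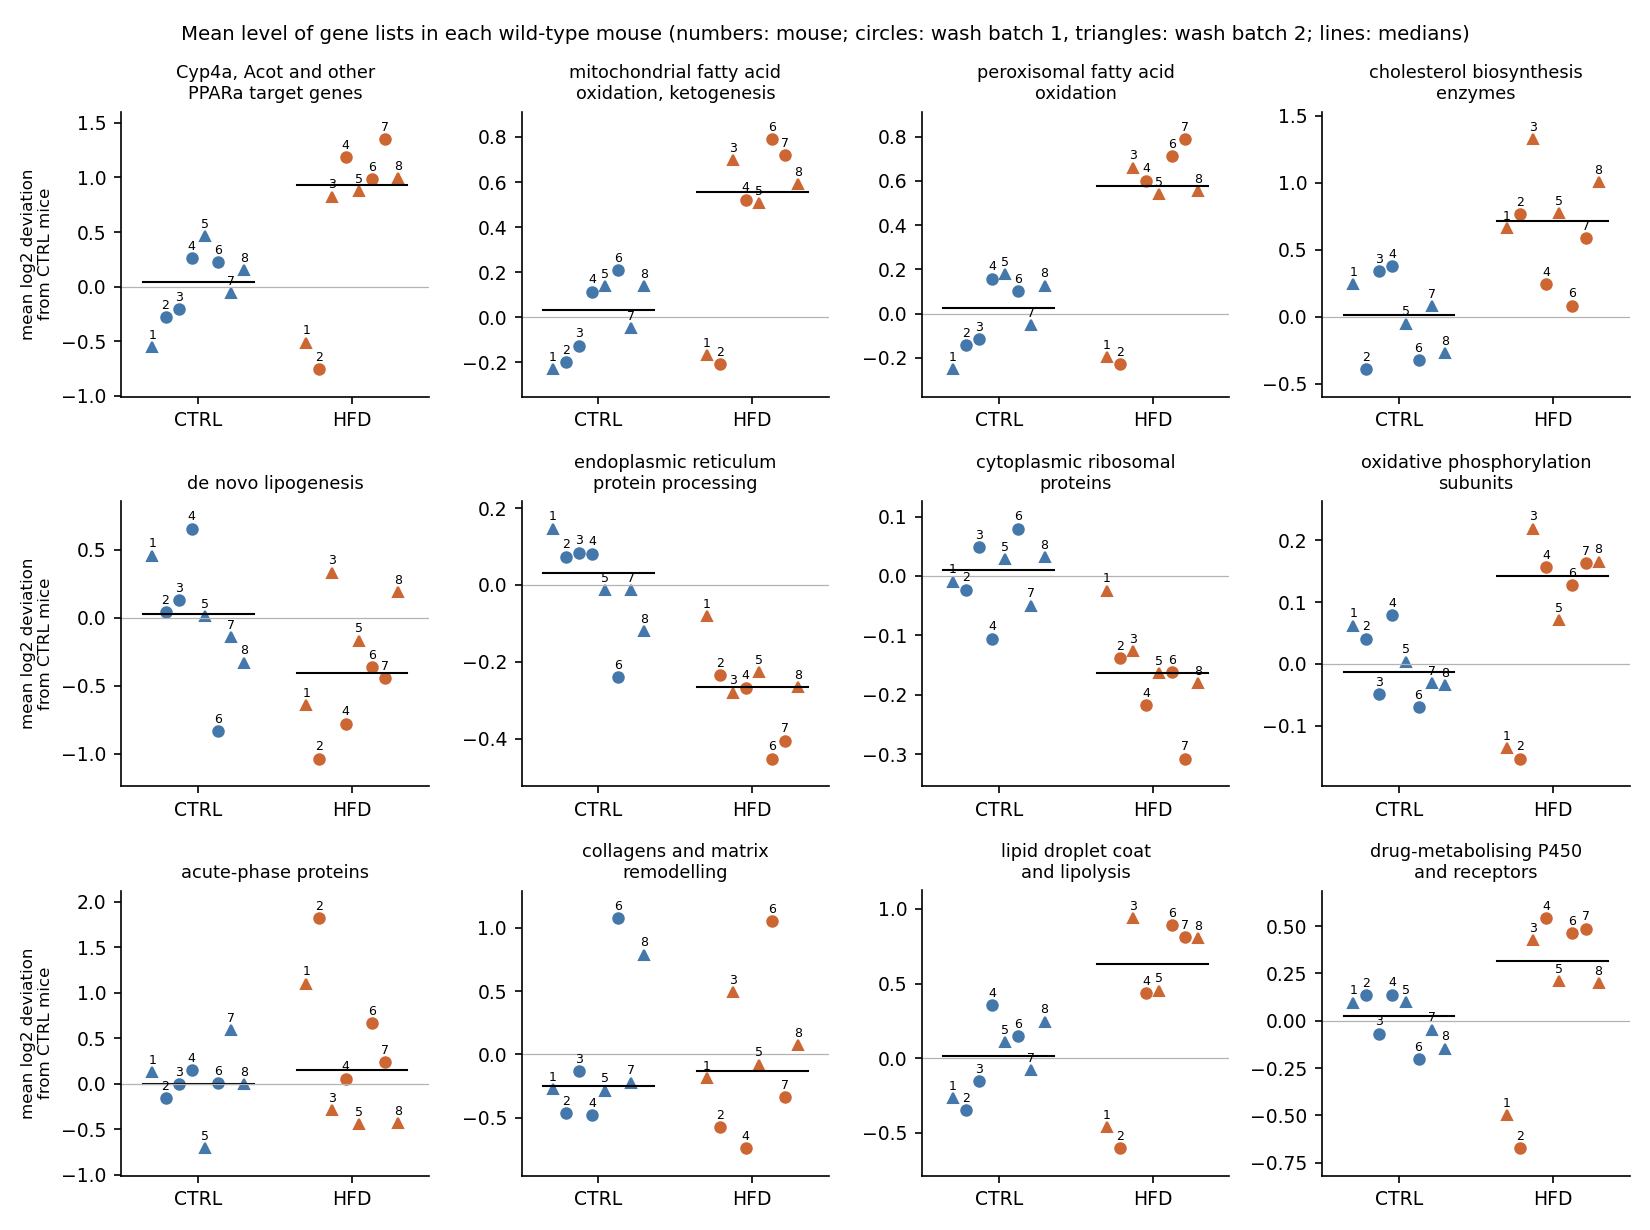
Mean log2 deviation of each WT mouse from the CTRL mice of its wash batch, over the tested members of 12 gene lists; circles are mice of wash batch 1, triangles of wash batch 2, and lines are the median of 8 mice. In the panels of PPARα targets and of mitochondrial oxidation 6 HFD mice lie above all CTRL mice, whereas HFD mice 1 and 2 lie at -0.51 and -0.75 and at -0.17 and -0.21.

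**Figure D3:**
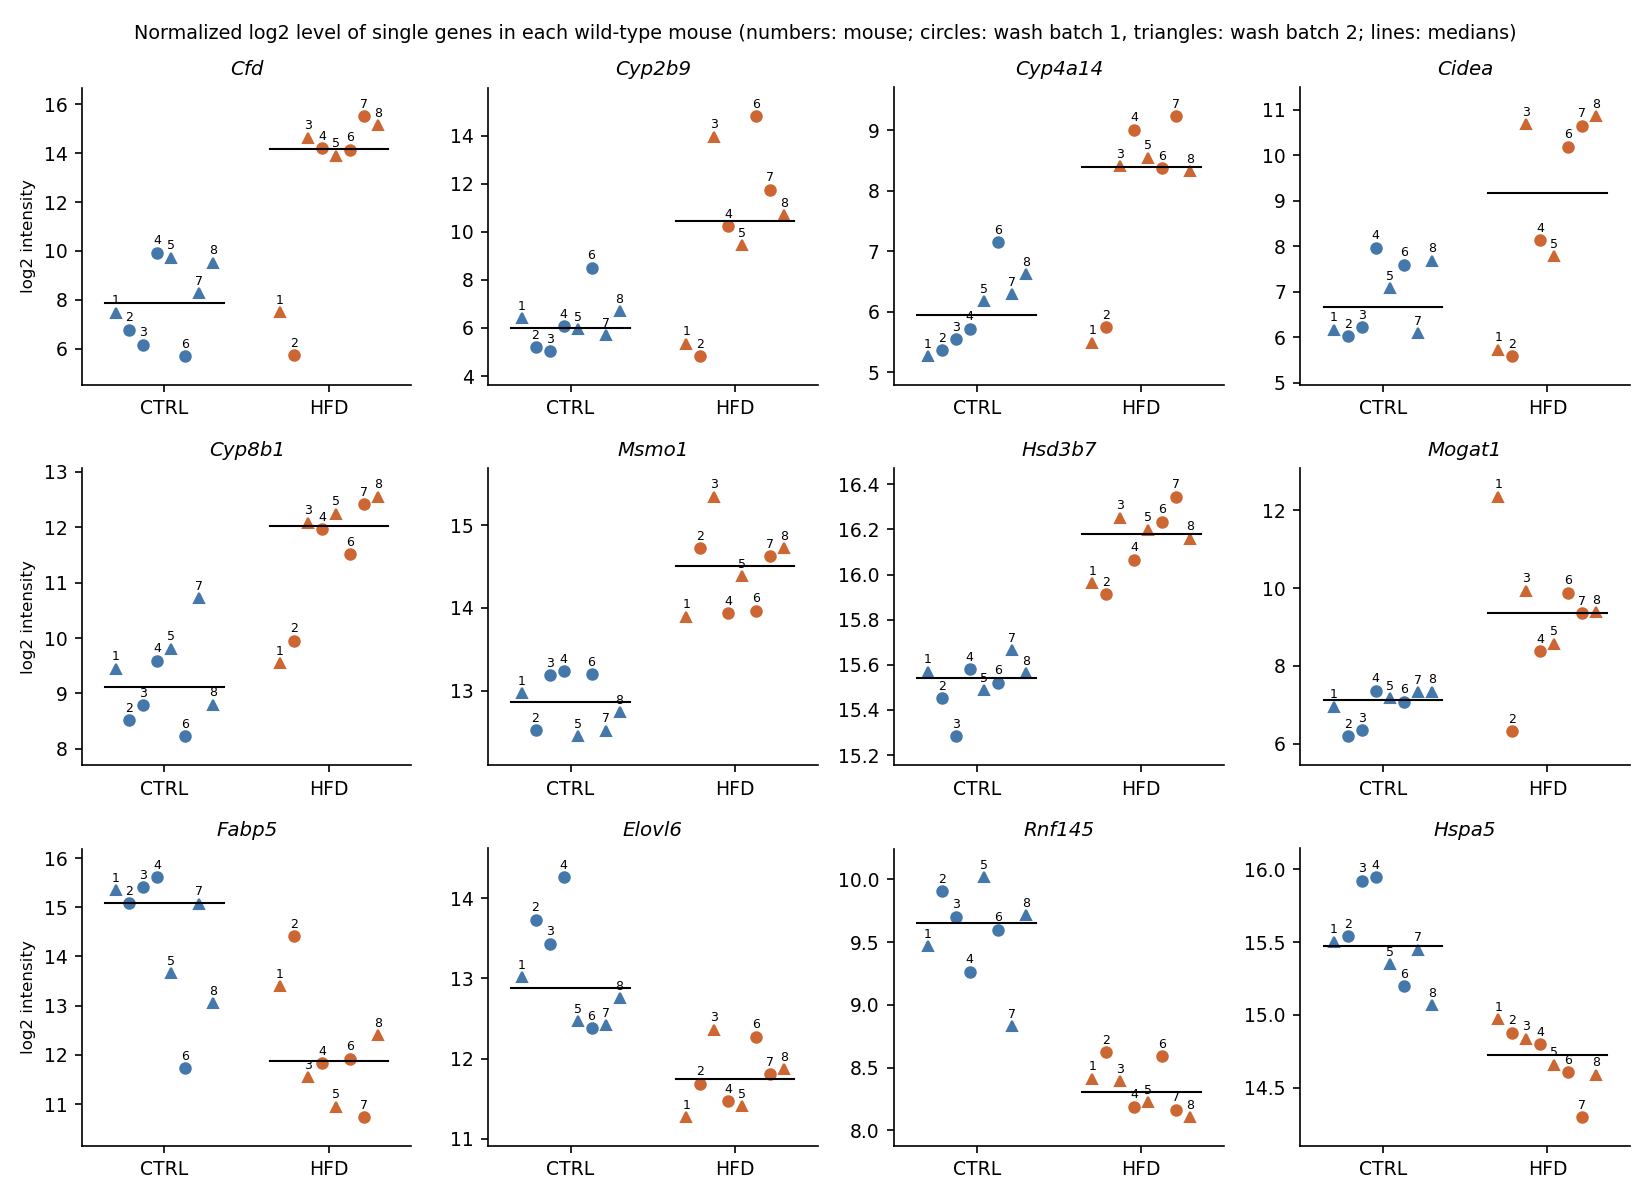
Signal (log2 normalised intensity) of 12 genes in each of the 8 CTRL and 8 HFD WT mice; each point is a mouse with its number, circles from wash batch 1 and triangles from wash batch 2, and lines are medians. Msmo1, Hsd3b7, Elovl6, Rnf145 and Hspa5 separate the diets fully, while in Cfd, Cyp2b9 and Cyp4a14 the same 6 HFD mice lie above every CTRL mouse and HFD mice 1 and 2 do not.

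Several enzymes of cholesterol synthesis rose as well. Of 20 tested enzymes, 9 were up-regulated (45%, against 9.32% of all genes), 0 were down-regulated and 11 were not called. The median log2 change was 0.56, and 18 had a positive change. The up-regulated enzymes were spread along the pathway, with Hmgcs1, Mvk, Idi1 and Fdft1 before lanosterol and Tm7sf2, Msmo1, Nsdhl and Dhcr7 after it. Hmgcs1 encodes the cytosolic HMG-CoA synthase at the head of the pathway. Its promoter is shown from 250 bases before to 50 after the start of the gene, chr13:119690101-119690400, plus strand (RefSeq, GRCm38.p6), because it was the sole up-regulated enzyme whose promoter held the searched sterol regulatory element. Capitals mark that element (TCACNCCAC, either strand) and CCAAT boxes, the sites of the NF-Y factor that works with SREBP, here read as ATTGG:
Hmgcs1: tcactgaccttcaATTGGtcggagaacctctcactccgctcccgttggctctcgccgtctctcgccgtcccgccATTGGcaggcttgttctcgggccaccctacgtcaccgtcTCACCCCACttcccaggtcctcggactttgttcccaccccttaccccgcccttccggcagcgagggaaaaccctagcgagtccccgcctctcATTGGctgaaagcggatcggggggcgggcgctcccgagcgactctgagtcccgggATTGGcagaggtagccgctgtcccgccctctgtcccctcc

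The element began at position -137 and the CCAAT boxes at -237, -176, -45 and 11, counted from the start of the gene. The element was present in 388 of 27025 genes with a promoter in the RefSeq table (1.44%) and, of the cholesterol enzymes, in 1 of 7 that were up-regulated and 0 of 8 that were not. CCAAT was present in 41.1% of genes, in 7 of 7 up-regulated and in 8 of 8 other enzymes. A match of letters is a description, not a proven site, and 5 of the 20 enzymes had no entry in the table.

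Hmgcs1 signal was 12.73 to 14.05 (median 13.33) in CTRL and 13.92 to 15.95 (median 14.94) in HFD mice, a log2 change of 1.60 ± 0.31 (3.03-fold, adjusted p = 0.000228). The ranges overlapped only at their ends. Mvk, encoding mevalonate kinase, had 11.11 to 12.31 (median 11.65) in CTRL and 12.37 to 14.13 (median 12.72) in HFD mice (1.22 ± 0.19, adjusted p = 1.01e-05), without overlap. Idi1, which isomerises isopentenyl diphosphate, rose by 1.03 ± 0.27, and Fdft1, encoding squalene synthase, by 0.47 ± 0.17 (adjusted p = 0.04), a call that was lost without the 5 mice (adjusted p = 0.0666).

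After lanosterol, Msmo1, encoding the methylsterol monooxygenase of C4 demethylation, had 12.45 to 13.23 (median 12.86) in CTRL and 13.89 to 15.34 (median 14.50) in HFD mice (1.70 ± 0.23, 3.24-fold, adjusted p = 1.83e-06). Nsdhl, encoding the dehydrogenase of the same demethylation, had 8.93 to 10.74 (median 9.99) in CTRL and 10.92 to 11.79 (median 11.42) in HFD mice (1.38 ± 0.26, adjusted p = 0.000197). All HFD mice were above all CTRL mice for both genes. Dhcr7, the last reductase, rose by 0.81 ± 0.20 and Tm7sf2, a sterol reductase, by 0.69 ± 0.20.

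Other enzymes of the pathway gave no call. Sqle, encoding squalene epoxidase, had a log2 change of 0.84 ± 0.36 (adjusted p = 0.0967) and Cyp51, encoding lanosterol demethylase, of 0.71 ± 0.27 (adjusted p = 0.0594). Changes of Fdps, Pmvk, Lss, Mvd, Hsd17b7, Sc5d and Ebp lay between 0.22 and 0.59 and that of Ggps1 was -0.10, none of them called. The median change of the 20 enzymes was 0.26 in wash batch 1 and 0.99 in wash batch 2, and Sqle had 0.13 and 1.47 in these batches. The part of the wash batch in this difference was not tested.

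Of 17 tested genes of sterol sensing and uptake, 2 were up-regulated (11.8%) and 1 down-regulated (5.88%), against 9.32% and 10.1% of all genes. The count of 1 was 3 without CTRL mouse 7, 3 without CTRL mouse 8, 2 without CTRL mouse 6, 2 without HFD mouse 3, and 4 within wash batch 1. Srebf2, encoding SREBP-2, rose by 0.29 ± 0.08 and Tmem97, a sterol-responsive partner of NPC1, by 0.32 ± 0.09. Rnf145, encoding an ER ubiquitin ligase that acts on the SREBP escort protein SCAP, fell from 8.83 to 10.02 (median 9.65) in CTRL to 8.11 to 8.63 (median 8.31) in HFD mice (-1.31 ± 0.12, adjusted p = 8.95e-10), without overlap. Insig2, which retains SCAP in the ER, had a value of 0.61 ± 0.24 (adjusted p = 0.0644). Of 11 LXR receptors and targets of sterol efflux, 2 were down-regulated (18.2%, against 10.1% of all genes): the cholesterol exporter Abca1 (-0.38 ± 0.10, adjusted p = 0.174 without array weights) and Lpl.

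**Figure D4:**
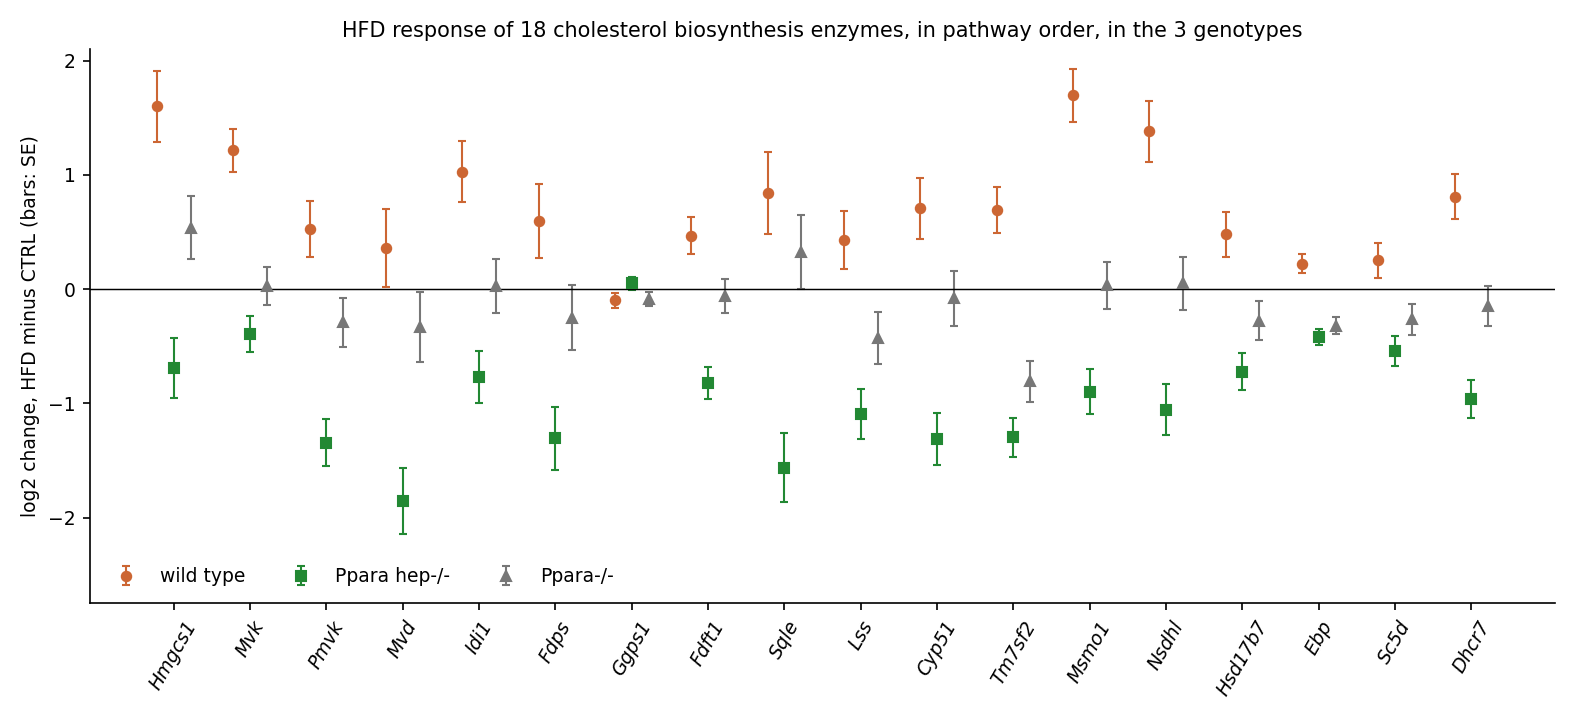
Log2 change (HFD minus CTRL, with SE) of 18 of the 20 tested enzymes of cholesterol synthesis in pathway order, in WT, Ppara hep-/- and Ppara-/- liver, 8 mice per diet and genotype. Of the 18 enzymes drawn, 17 lie above 0 in WT, 15 were down-regulated in Ppara hep-/- and 2 in Ppara-/- liver.

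Some genes of fatty acid synthesis fell. Of 21 tested genes of de novo lipogenesis, 6 were down-regulated (28.6%, against 10.1% of all genes) and 1 up-regulated (4.76%, against 9.32%), with a median of -0.32. Down-regulated were 3 without array weights and 3 without CTRL mouse 4. Elovl6, which elongates palmitate to stearate, had a signal of 12.38 to 14.26 (median 12.88) in CTRL and 11.27 to 12.36 (median 11.75) in HFD mice, without overlap (-1.43 ± 0.32, adjusted p = 0.00105). Acaca, encoding acetyl-CoA carboxylase 1, had 12.93 to 14.50 (median 13.73) in CTRL and 12.59 to 13.21 (median 12.73) in HFD mice (-1.03 ± 0.22, adjusted p = 0.000543). Every HFD mouse was below the CTRL median for Acaca and the ranges overlapped.

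Fasn, encoding fatty acid synthase, had 14.93 to 17.92 (median 16.43) in CTRL and 14.84 to 16.62 (median 15.39) in HFD mice (-1.09 ± 0.36, adjusted p = 0.029). Scd1, the main hepatic stearoyl-CoA desaturase, had 15.67 to 17.27 (median 16.70) in CTRL and 13.78 to 16.17 (median 15.62) in HFD mice (-1.23 ± 0.43, adjusted p = 0.0383). Both calls depended on the setting: Fasn was lost without array weights (adjusted p = 0.0864) and both were lost without HFD mice 1 and 2 (0.0557 and 0.0736). Pnpla3, a lipid droplet acyltransferase and lipase induced by carbohydrate, had 5.29 to 10.08 (median 6.83) in CTRL and 5.16 to 5.98 (median 5.70) in HFD mice (adjusted p = 0.0162), and its probe was well above background on 6 of 8 CTRL and 3 of 8 HFD arrays. It was not called without CTRL mouse 4, and without this gene 5 lipogenic genes were down-regulated. G6pdx, which supplies NADPH, changed by -0.68 ± 0.19, and neither gene was called without array weights (adjusted p = 0.0831 for Pnpla3 and 0.0657 for G6pdx). Taldo1, of the pentose phosphate pathway, rose by 0.33 ± 0.07.

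The transcription factors of lipogenesis were not called. Srebf1 had a value of -0.32 ± 0.21 (adjusted p = 0.309) and Mlxipl, encoding ChREBP, of -0.25 ± 0.12 (adjusted p = 0.131). Acly, which makes cytosolic acetyl-CoA, had a value of -0.56 ± 0.30, malic enzyme Me1 of -0.42 ± 0.42 and Thrsp, a lipogenic regulator, of 0.18 ± 0.28. The median change of the 21 genes was -0.53 in wash batch 1 and 0.07 in wash batch 2, where 7 and 0 genes were down-regulated. Fasn changed by -1.83 and -0.22 in these batches.

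Among 14 desaturases and elongases, 5 were down-regulated (35.7%, against 10.1% of all genes) and 1 up-regulated (7.14%, near the 9.32% of all genes). Scd3 (-1.50 ± 0.39) and Elovl2 (-0.44 ± 0.11), which elongates polyunsaturated fatty acids, fell with Scd1 and Elovl6. Elovl3, which makes very long saturated chains, had 8.38 to 11.57 (median 10.66) in CTRL and 10.58 to 12.79 (median 11.74) in HFD mice (1.32 ± 0.42, adjusted p = 0.0205, and 0.0661 without array weights).

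Several genes of fat storage rose. Of 21 genes of the lipid droplet and of lipolysis, 11 were up-regulated and 2, Pnpla3 among them, down-regulated (median 0.29, 6 and 0 without array weights). Cidea, encoding a droplet-fusion protein, had a signal of 6.01 to 7.96 (median 6.65) in CTRL and 5.59 to 10.85 (median 9.16) in HFD mice (2.64 ± 0.47, 6.25-fold, adjusted p = 7.46e-05). Plin4, a droplet coat protein, had 8.74 to 11.09 (median 9.83) in CTRL and 9.37 to 13.26 (median 12.37) in HFD mice (2.56 ± 0.50, adjusted p = 0.000281). For Cidea, HFD mice 1 and 2, at 5.72 and 5.59, were below every CTRL mouse, and 5 of the other 6 were above every CTRL mouse. Without these 2 mice Cidea changed by 3.17 and Plin4 by 2.90. Cidec, a relative of Cidea, changed by 2.47 ± 0.64 but was not called without array weights (adjusted p = 0.269), and its signal in CTRL mice spread from 8.08 to 13.72.

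Fitm1, which helps droplets form at the ER, rose by 1.53 ± 0.36. Pparg, encoding the receptor that directs lipid storage, rose by 1.17 ± 0.26 (adjusted p = 0.000871, and 0.057 without array weights). Of 22 genes of triglyceride synthesis and VLDL assembly, 7 were up-regulated (31.8%, against 9.32% of all genes) and 0 down-regulated (median 0.08), and 3 and 1 without array weights. Mogat1, encoding a monoacylglycerol acyltransferase, had 6.19 to 7.37 (median 7.13) in CTRL and 6.33 to 12.34 (median 9.37) in HFD mice (2.33 ± 0.40, adjusted p = 6.01e-05). In Mogat1, 7 of the 8 HFD mice were above every CTRL mouse, with HFD mouse 1 the highest and HFD mouse 2, at 6.33, inside the CTRL range. Agpat9, encoding a glycerol-3-phosphate acyltransferase, changed by 2.28 ± 0.52 and the carboxylesterase gene Ces1g by 1.01 ± 0.24, and neither was called without array weights (adjusted p = 0.0585 and 0.266).

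Of 21 genes of fatty acid uptake and binding, 7 were up-regulated (33.3%, against 9.32% of all genes) and 3 down-regulated (14.3%, against 10.1%). Cd36, encoding a fatty acid translocase, had 7.40 to 10.21 (median 8.41) in CTRL and 8.16 to 11.51 (median 9.97) in HFD mice (1.64 ± 0.31, adjusted p = 0.000192). Acsl1, which activates long-chain fatty acids, rose by 0.70 ± 0.14, and Vldlr, encoding the VLDL receptor, changed by 1.05 ± 0.29 (adjusted p = 0.0808 without array weights). Fabp5, encoding an intracellular fatty acid-binding protein, had 11.73 to 15.61 (median 15.08) in CTRL and 10.74 to 14.41 (median 11.88) in HFD mice, the largest fall of the genes with a symbol (-3.00 ± 0.41, 7.99-fold, adjusted p = 1.83e-06). The ranges overlapped through CTRL mice 5, 6 and 8, at 13.66, 11.73 and 13.05, and HFD mice 1 and 2, at 13.40 and 14.41. Lpl, encoding lipoprotein lipase, changed by -1.26 ± 0.38 (adjusted p = 0.0748 without array weights), and Acsl4, an arachidonate-preferring synthetase, by -0.49 ± 0.14.

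Cfd, encoding the serine protease adipsin (complement factor D) that adipocytes secrete, showed the largest rise of the genes with a symbol. Its signal was 5.70 to 9.92 (median 7.86) in CTRL and 5.74 to 15.51 (median 14.18) in HFD mice (5.79 ± 0.72, 55.3-fold, adjusted p = 3.81e-07). In 6 HFD mice it lay between 13.90 and 15.51, all above every CTRL mouse, and in HFD mice 1 and 2 at 7.49 and 5.74. Without these 2 mice the change was 6.67, and without array weights 4.66. Of 7 tested adipocyte markers 4 were up-regulated, Cfd, Cidec, Pparg and Lipe (1 without array weights), with a summed log2 signal of 11.3 to 14.3 in CTRL and 11.6 to 15.8 in HFD mice. The defining adipocyte genes were near background: the Adipoq probe was well above background on 1 of 8 CTRL and 0 of 8 HFD arrays, the 3 Plin1 probes on at most 1 CTRL and 2 HFD arrays, and Lep was not called (0.00 ± 0.09, adjusted p = 0.984). Fabp4 had a value of 0.51 ± 0.21 (adjusted p = 0.0832).

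Several enzymes of bile acid synthesis rose. Of 20 tested genes, 8 were up-regulated (40%, against 9.32% of all genes) and 2 down-regulated (10%, near the 10.1% of all genes), with a median of 0.16. The count of 8 was 5 without array weights, 5 without HFD mouse 5 and 4 without HFD mouse 7. Cyp8b1, the sterol 12α-hydroxylase of that branch, had 8.22 to 10.72 (median 9.12) in CTRL and 9.55 to 12.55 (median 12.02) in HFD mice (2.65 ± 0.36, 6.28-fold, adjusted p = 1.33e-06). All HFD mice were above the CTRL median. Cyp7a1, the rate-limiting enzyme of the classic pathway, had 8.53 to 12.18 (median 10.30) in CTRL and 10.76 to 11.92 (median 11.34) in HFD mice (1.35 ± 0.44, adjusted p = 0.0253, and 0.139 without array weights).

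Hsd3b7, which acts after Cyp7a1 on the sterol ring, separated the diets fully, with 15.28 to 15.67 (median 15.54) in CTRL and 15.91 to 16.34 (median 16.18) in HFD mice (0.68 ± 0.11, adjusted p = 3.04e-05). Baat, which conjugates bile acids to taurine and glycine, also did not overlap (0.36 ± 0.07). Akr1d1, the steroid 5β-reductase, rose by 0.58 ± 0.17, and Cyp39a1, which hydroxylates 24-hydroxycholesterol, fell (-0.93 ± 0.32, adjusted p = 0.035). Among 16 transporters 5 were up-regulated (31.2%, against 9.32% of all genes) and 2 down-regulated (12.5%, near the 10.1% of all genes), and 3 and 1 without array weights. The basolateral exporter Abcc3 changed by 1.41 ± 0.25 (adjusted p = 0.0665 without array weights) and the bile salt export pump Abcb11 changed by -0.56 ± 0.13.

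Of 45 cytochrome P450 genes and receptors of drug metabolism, 9 were up-regulated (20%) and 5 down-regulated (11.1%, near the 10.1% of all genes). The count of 9 was 6 without array weights, 5 without HFD mouse 7, 5 without CTRL mice 6 and 8 and HFD mouse 6, and 13 without all 5 mice. Cyp2b9 had a signal of 5.02 to 8.5 (median 6.0) in CTRL and 4.84 to 14.80 (median 10.46) in HFD mice (4.77 ± 0.70, adjusted p = 4.82e-06, and 4.18 without HFD mouse 3), and the near-identical Cyp2b10 changed by 4.18 ± 0.67. Both probes were well above background on 4 of 8 CTRL and 6 of 8 HFD arrays. Cyp2b9 was at 9.44 to 14.80 in 6 HFD mice and at 5.35 and 4.84 in HFD mice 1 and 2, without which it changed by 5.49 and Cyp2b10 by 4.81. Nr1i3, encoding the receptor CAR that induces Cyp2b genes, rose by 1.04 ± 0.17. Cyp2c70, which hydroxylates bile acids in mice, fell from 15.09 to 17.04 (median 16.67) in CTRL to 14.91 to 16.77 (median 15.26) in HFD mice (-1.29 ± 0.25).

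Among 43 conjugating enzymes 14 were up-regulated (32.6%, against 9.32% of all genes) and 3 down-regulated (6.98%, against 10.1%). The sulfotransferases Sult5a1 (1.38 ± 0.36) and Sult1b1 (0.90 ± 0.15) and the glycosyltransferase Ugt3a1 (0.59 ± 0.10, no overlap) were among those up-regulated. The counts were 7 and 4 without array weights, with the median going from 0.11 to -0.01, and 8 and 9 were up-regulated without HFD mouse 7 and without HFD mouse 8. Acnat2, which conjugates fatty acids to amino acids, had 8.17 to 10.39 (median 9.36) in CTRL and 10.45 to 11.83 (median 10.99) in HFD mice (1.53 ± 0.28). Of 24 antioxidant genes 6 were up-regulated (25%, against 9.32% of all genes), 3 without array weights and 0 within wash batch 2. Among the 6 were the mitochondrial superoxide dismutase Sod2 at 0.51 ± 0.10 and the metallothionein Mt1 at 1.33 ± 0.47 (adjusted p = 0.0389, and 0.0516 without array weights). Of 22 male-biased liver genes 2 were up-regulated and 2 down-regulated (9.09% each, near the shares of all genes), and of 21 female-biased genes, Cyp2b9, Cyp2b10 and Cyp4a10 among them, 7 (33.3%) and 3 (14.3%). Without array weights 4 and 3 of the female-biased genes were called, with the median going from 0.30 to 0.08.

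The protein-folding machinery of the ER was down-regulated. Of 77 tested genes 51 were down-regulated and 1 up-regulated (median -0.30), against 10.1% down-regulated over all genes. Hspa5, encoding the chaperone BiP, had a signal of 15.07 to 15.95 (median 15.48) in CTRL and 14.30 to 14.97 (median 14.73) in HFD mice (-0.94 ± 0.14, adjusted p = 3.6e-06), without overlap. Manf, encoding a secreted ER stress protein, had 11.52 to 13.00 (median 12.45) in CTRL and 11.01 to 11.85 (median 11.39) in HFD mice (-1.16 ± 0.18, adjusted p = 9.85e-06). Every HFD mouse was below the CTRL median for both genes.

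The genes that fell covered several steps of the secretory pathway. Creld2 (-1.09 ± 0.24) and Sdf2l1 (-1.0 ± 0.24) encode ER-resident folding factors, and Syvn1 (-0.93 ± 0.14) encodes the ubiquitin ligase HRD1 of ER-associated degradation. Xbp1, encoding the transcription factor of the IRE1 branch of the unfolded protein response, had 14.90 to 15.90 (median 15.45) in CTRL and 14.22 to 15.82 (median 14.82) in HFD mice (-0.78 ± 0.17), and Atf4, of the PERK branch, changed by -0.34 ± 0.08. Outside the list, the cargo receptor gene Tmed3 (-0.86 ± 0.11) and Arfgap3 (-1.10 ± 0.14), which controls vesicle coats at the Golgi, fell without overlap. Herpud1, of ER-associated degradation, had a value of 0.02 ± 0.13 (adjusted p = 0.932) and P4hb, encoding protein disulfide isomerase, of -0.11 ± 0.05 (adjusted p = 0.135).

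Averaged over the list, HFD mice lay between -0.45 and -0.08 and CTRL mice between -0.24 and 0.15, and the ranges overlapped through CTRL mice 6 and 8, at -0.24 and -0.12, and HFD mice 1, 2 and 5, at -0.08, -0.23 and -0.23. The median change was -0.35 in wash batch 1 and -0.24 in wash batch 2, where 40 and 8 genes were down-regulated. Without array weights 40 genes were down-regulated, against 6.62% of all genes, and without the 5 mice 56, against 11.8% of all genes.

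Cytoplasmic ribosomal protein genes fell by small amounts. Of 79 tested genes 64 were down-regulated, 0 up-regulated and 15 not called (median -0.19, range -0.45 to 0.09). Rpl12 had 15.49 to 16.11 (median 15.70) in CTRL and 15.08 to 15.58 (median 15.26) in HFD mice (-0.45 ± 0.07, adjusted p = 5.41e-06), and Rps12 changed by -0.32 ± 0.07. Rpl10 separated the diets, with 17.49 to 17.73 (median 17.56) in CTRL and 17.22 to 17.44 (median 17.34) in HFD mice (-0.27 ± 0.05). The median stayed between -0.20 and -0.19 under 3 other scalings of the arrays, under which the median of all genes was between -0.00 and 0.01. Within wash batches the medians were -0.25 and -0.14, with 46 and 3 genes down-regulated. In the 16 WT arrays alone and without array weights 7 genes were called. Ribosomal pseudogenes of near-identical sequence may add to these probes.

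Of 75 subunits of oxidative phosphorylation 18 were up-regulated (24%, against 9.32% of all genes), 0 were down-regulated and 57 were not called, with a median of 0.11. Ndufa7 had 14.70 to 14.96 (median 14.86) in CTRL and 14.86 to 15.22 (median 15.13) in HFD mice (0.29 ± 0.05), Ndufb3 rose by 0.33 ± 0.07, and Ndufs8 (0.16 ± 0.04) did not overlap between diets, all 3 encoding complex I subunits. The count was 9 when arrays were scaled by the 75th percentile, 10 within wash batch 1, 0 within wash batch 2, 10 without array weights, 31 without HFD mouse 1, 29 without HFD mouse 2, 40 without both and 32 without all 5 mice. Of 34 proteasome subunits 3 were up-regulated (8.82%, near the 9.32% of all genes), with the immunoproteasome subunit Psmb9 changing most (0.69 ± 0.13).

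Of 30 genes of the growth hormone axis and of hepatokines 5 were down-regulated (16.7%, against 10.1% of all genes) and 1 up-regulated (3.33%, against 9.32%), with a median of 0.02. Socs2, a feedback inhibitor and a target of growth hormone and STAT5, had a signal of 9.88 to 12.87 (median 10.76) in CTRL and 8.27 to 10.81 (median 9.67) in HFD mice (-1.76 ± 0.39, adjusted p = 0.00113). Cish, from the same family, changed by -1.70 ± 0.56 (adjusted p = 0.0277), and Socs3 by -1.62 ± 0.34, the latter not called without array weights (adjusted p = 0.0843). Inhba, encoding an activin subunit, changed by -1.01 ± 0.18, and the hepatokine gene Lect2 was the 1 up-regulated (0.53 ± 0.12). Prlr, encoding the prolactin receptor, rose by 1.17 ± 0.32.

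Of 34 genes of glucose handling and insulin signalling 7 were down-regulated (20.6%, against 10.1% of all genes) and 1 up-regulated (2.94%, against 9.32%). The counts were 4 and 2 without array weights, and 4 were down-regulated without CTRL mouse 3 and 4 without HFD mouse 7. Irs2, an adaptor of the insulin receptor, had 10.75 to 11.75 (median 11.25) in CTRL and 10.14 to 12.00 (median 10.26) in HFD mice (-0.83 ± 0.18, adjusted p = 0.000933). Ppp1r3g, a glycogen-targeting phosphatase subunit, changed by -1.13 ± 0.40 (adjusted p = 0.0408, and 0.205 without the 5 mice). Slc2a4, encoding the insulin-responsive transporter GLUT4, had 6.71 to 11.78 (median 10.12) in CTRL and 7.10 to 8.89 (median 7.86) in HFD mice (-2.23 ± 0.43, 4.71-fold, adjusted p = 0.000195). All HFD mice were below the CTRL median, and CTRL mouse 6 was the lowest of all 16.

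Of 55 genes of amino acid catabolism and the urea cycle 17 were up-regulated (30.9%, against 9.32% of all genes) and 7 down-regulated (12.7%, near the 10.1% of all genes). Bhmt, which remethylates homocysteine, rose by 1.01 ± 0.17 and Agxt2, a mitochondrial aminotransferase, by 0.48 ± 0.08 without overlap. The serine dehydratase gene Sds (-0.94 ± 0.25) and the urea cycle genes Cps1 (-0.88 ± 0.21) and Ass1 (-0.37 ± 0.10) fell. Of the clock genes, Nr1d1, encoding the repressor REV-ERBα, changed by -0.94 ± 0.31 (adjusted p = 0.0287, and 0.148 without array weights), while Arntl, encoding BMAL1, had a value of 0.88 ± 0.37 (adjusted p = 0.0915). Among 29 immediate early and heat shock genes 5 were down-regulated (17.2%, against 10.1% of all genes), 2 without array weights. The 5 included the stress gene Gadd45g at -1.91 ± 0.65 (adjusted p = 0.033, and 0.125 without array weights) and the chaperone gene Hsph1 at -0.76 ± 0.17.

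Inflammatory and matrix genes gave few calls in WT liver. Of 68 genes of NF-κB, TNF and TLR signalling 2 were up-regulated and 4 down-regulated (2 without array weights), of 28 acute-phase genes 0 and 1, of 37 interferon-stimulated genes 0 and 3, of 43 collagen and matrix genes 0 and 2, and of 25 cell cycle genes 0 and 0. The NF-κB shares were 2.94% and 5.88%, against 9.32% and 10.1% of all genes. The shares down-regulated were 3.57% for acute-phase and 4.65% for collagen genes. For interferon-stimulated genes the share was 8.11%, near the 10.1% of all genes. The acute-phase counts were 4 and 0 without array weights and within wash batch 1, 0 and 5 without HFD mice 1 and 2, and 0 and 4 without all 5 mice, and 4 genes were up-regulated without CTRL mouse 7. The averages over these lists were high in the mice that stood apart. CTRL mouse 6 and HFD mouse 6 were the highest of their diets for NF-κB, TNF and TLR genes (0.34 and 0.60), interferon-stimulated genes (0.99 and 0.64), collagen and matrix genes (1.08 and 1.05) and cell cycle genes (1.43 and 0.94), and HFD mouse 2 was the highest for acute-phase genes (1.82). Without CTRL mice 6 and 8 and HFD mouse 6 the counts were 3 and 4 for NF-κB, 0 and 2 for interferon, 0 and 2 for collagen and 2 and 0 for cell cycle genes. Tlr5, the receptor for flagellin, rose by 1.15 ± 0.25, and Il1rn, the interleukin-1 receptor antagonist, by 0.86 ± 0.29. Il1r1, the interleukin-1 receptor, changed by -1.02 ± 0.35 (adjusted p = 0.505 without array weights) and Ripk1, a kinase downstream of TNF, by -0.47 ± 0.08.

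Bst2, encoding the antiviral protein tetherin, had 14.22 to 15.49 (median 14.34) in CTRL and 13.46 to 14.10 (median 13.69) in HFD mice, without overlap (-0.74 ± 0.10, adjusted p = 1.8e-06). Irf7, an interferon regulatory factor, (-0.60 ± 0.16) and Tgfbr1, a TGF-β receptor (-0.58 ± 0.11), fell. Col1a1, encoding type I collagen, had 7.21 to 11.93 (median 8.30) in CTRL and 7.53 to 12.63 (median 8.63) in HFD mice (0.46 ± 0.56, adjusted p = 0.645). The acute-phase genes Lcn2 (1.52 ± 0.70, adjusted p = 0.128) and Saa1 (0.18 ± 0.57, adjusted p = 0.883) were not called, and Lcn2 ranged from 8.59 to 15.41 in CTRL and from 11.06 to 17.63 in HFD mice. Fgb, a fibrinogen chain, changed by -0.29 ± 0.09 (adjusted p = 0.299 without array weights).

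Marker genes of other liver cells gave few calls. None of the tested markers of Kupffer cells (11), neutrophils (10), T and NK cells (13), B and plasma cells (7), sinusoidal endothelium (11), stellate cells (11), cholangiocytes (9), pancreatic acinar cells (7) and red blood cells (7) was called. The red blood cell markers had a median change of 0.49 with 6 of 7 positive and a summed log2 signal of 17.4 to 18.8 in CTRL and 17.6 to 18.9 in HFD mice, and the cholangiocyte markers had a median of -0.22 with 0 of 9 positive. Of 14 macrophage and monocyte markers 1 was called, the tetraspanin gene Cd9, which fell (-0.95 ± 0.20). Yet 12 of the 14 had a positive change, with a median of 0.22. Without all 5 mice that stood apart 2 of the 14 were up-regulated and 1 down-regulated. Of 5 skeletal muscle markers 1 was down-regulated. The summed log2 signal of the neutrophil markers was 10.8 to 11.9 in CTRL and 10.6 to 15.2 in HFD mice, with HFD mouse 2 the highest, and that of the macrophage markers 14 to 16.4 and 13.6 to 16.2.

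Genes without overlap between the diets numbered 136 (0.617%), 57 of them up-regulated (0.259%) and 79 down-regulated (0.359%), 18 of the 136 without a gene symbol. Several lay outside the lists. Ildr2, encoding an ER membrane protein linked to hepatic lipid, had a signal of 8.68 to 9.60 (median 9.26) in CTRL and 9.91 to 11.05 (median 10.51) in HFD mice (1.38 ± 0.16, adjusted p = 1.68e-07). Tlcd2, encoding a membrane protein with a TLC domain, had 12.56 to 13.74 (median 13.05) in CTRL and 13.95 to 14.75 (median 14.51) in HFD mice (1.38 ± 0.18, adjusted p = 7.05e-07). Gda, encoding guanine deaminase, rose by 0.88 ± 0.11, Plbd1, a phospholipase B-like protein, by 0.72 ± 0.09, and Ido2, of tryptophan catabolism, by 0.69 ± 0.12. The set also held Grin3b, encoding an NMDA receptor subunit (1.84 ± 0.27), and Gabrd, encoding a GABA receptor subunit (0.95 ± 0.23).

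Among the genes that fell without overlap, Tmem120b, encoding a nuclear envelope protein of fat-cell differentiation, had 9.53 to 10.49 (median 9.94) in CTRL and 8.90 to 9.36 (median 9.17) in HFD mice (-0.82 ± 0.09, adjusted p = 1.12e-07). Trip10, a membrane-bending adaptor, fell to a narrow range, from 11.03 to 11.89 (median 11.54) in CTRL to 10.76 to 10.96 (median 10.85) in HFD mice (-0.70 ± 0.09). Gfpt1, the first enzyme of hexosamine synthesis, changed by -0.70 ± 0.10, the sodium pump subunit gene Atp1b1 by -0.76 ± 0.10, the zinc transporter gene Slc39a6 by -0.91 ± 0.13 and the galactosyltransferase gene B4galt5 by -0.81 ± 0.13.

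With larger falls but some overlap, Adgrf1, an adhesion receptor, had 6.04 to 10.11 (median 9.61) in CTRL and 5.22 to 8.60 (median 6.98) in HFD mice (-2.62 ± 0.38, adjusted p = 4.07e-06). Ntrk2, encoding the neurotrophin receptor TrkB, had 8.90 to 10.72 (median 9.88) in CTRL and 6.89 to 9.24 (median 7.66) in HFD mice (-2.29 ± 0.35). Ptgds, the prostaglandin D2 synthase, changed by -2.11 ± 0.32 and Cib3, a calcium-binding protein, by -2.21 ± 0.40. All 8 HFD mice were below the CTRL median for Adgrf1, Ntrk2 and Ptgds.

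The HFD response was then set beside that of mice without PPARα. Both comparisons use the same 16 WT mice and are therefore not independent. The response differed between WT and Ppara hep-/- liver for 2458 genes (11.2%) and between WT and Ppara-/- liver for 3418 (15.5%). These counts depended on array weights: without them they were 206 genes (0.935%) and 1247 genes (5.66%). Over all genes HFD up-regulated 10.7% and down-regulated 11.8% in Ppara hep-/- liver, and 13.8% and 12.6% in Ppara-/- liver, and the counts in the mutants are to be read against these shares.

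For cholesterol synthesis the difference was present with and without the weights. In Ppara hep-/- liver 17 of the 20 enzymes were down-regulated by HFD and 0 up-regulated (median -0.93), and in Ppara-/- liver 2 and 0 (median -0.12). The WT response was higher than that of Ppara hep-/- for 19 enzymes and for 18 without array weights. It was higher than that of Ppara-/- for 7 enzymes with and 7 without weights. Msmo1 had log2 changes of 1.70 in WT, -0.90 in Ppara hep-/- and 0.03 in Ppara-/- mice, a difference of 2.59 ± 0.31 (adjusted p = 8.35e-07) and of 1.66 ± 0.31 (adjusted p = 0.000347). Hmgcs1 had values of 1.60, -0.69 and 0.54, a difference of 2.29 ± 0.41 (adjusted p = 0.000328) and of 1.06 ± 0.41 (adjusted p = 0.0742). Tm7sf2 changed by 0.69, -1.30 and -0.81, with differences of 1.99 ± 0.27 and 1.50 ± 0.27.

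For the PPARα targets the same comparison rested on the weights. Of 27 genes 5 were up-regulated and 4 down-regulated by HFD in Ppara hep-/- liver (median 0.11) and 10 and 4 in Ppara-/- liver (median 0.28). The WT response was higher for 13 genes against Ppara hep-/- and for 8 against Ppara-/-, and without array weights for 0 and 0. It was lower for 1 gene, Fgf21, against Ppara-/-, both with the weights and without them. Fitm1 had log2 changes of 1.53 in WT, -0.12 in Ppara hep-/- and -0.27 in Ppara-/- mice, a difference of 1.66 ± 0.47 (adjusted p = 0.0189, and 0.284 without weights) and of 1.81 ± 0.48 (adjusted p = 0.00865, and 0.115 without weights). Vnn1 rose in all 3 genotypes, by 2.39, 1.64 and 1.26. HFD mice 1 and 2, which lacked the rise in these genes, are 2 of the 8 WT HFD mice behind these tests.

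Oxidation genes rose without PPARα too. Of 29 mitochondrial genes 19 were up-regulated in Ppara hep-/- (median 0.36) and 21 in Ppara-/- liver (median 0.34), against 25 in WT. The WT response was higher for 4 of the 29 in either comparison, near the 11.2% and 15.5% of all genes that differed. Without array weights it was higher for 1 and 0. Peroxisomal genes gave 11 and 7 up-regulated (medians 0.11 and 0.14) against 21 in WT. The WT response was higher for 7 and 8 of them, and for 0 and 1 without array weights. Plin4 rose in WT, Ppara hep-/- and Ppara-/- mice, by 2.56, 2.65 and 3.64, as did Cidec, by 2.47, 2.68 and 3.01.

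**Figure D5:**
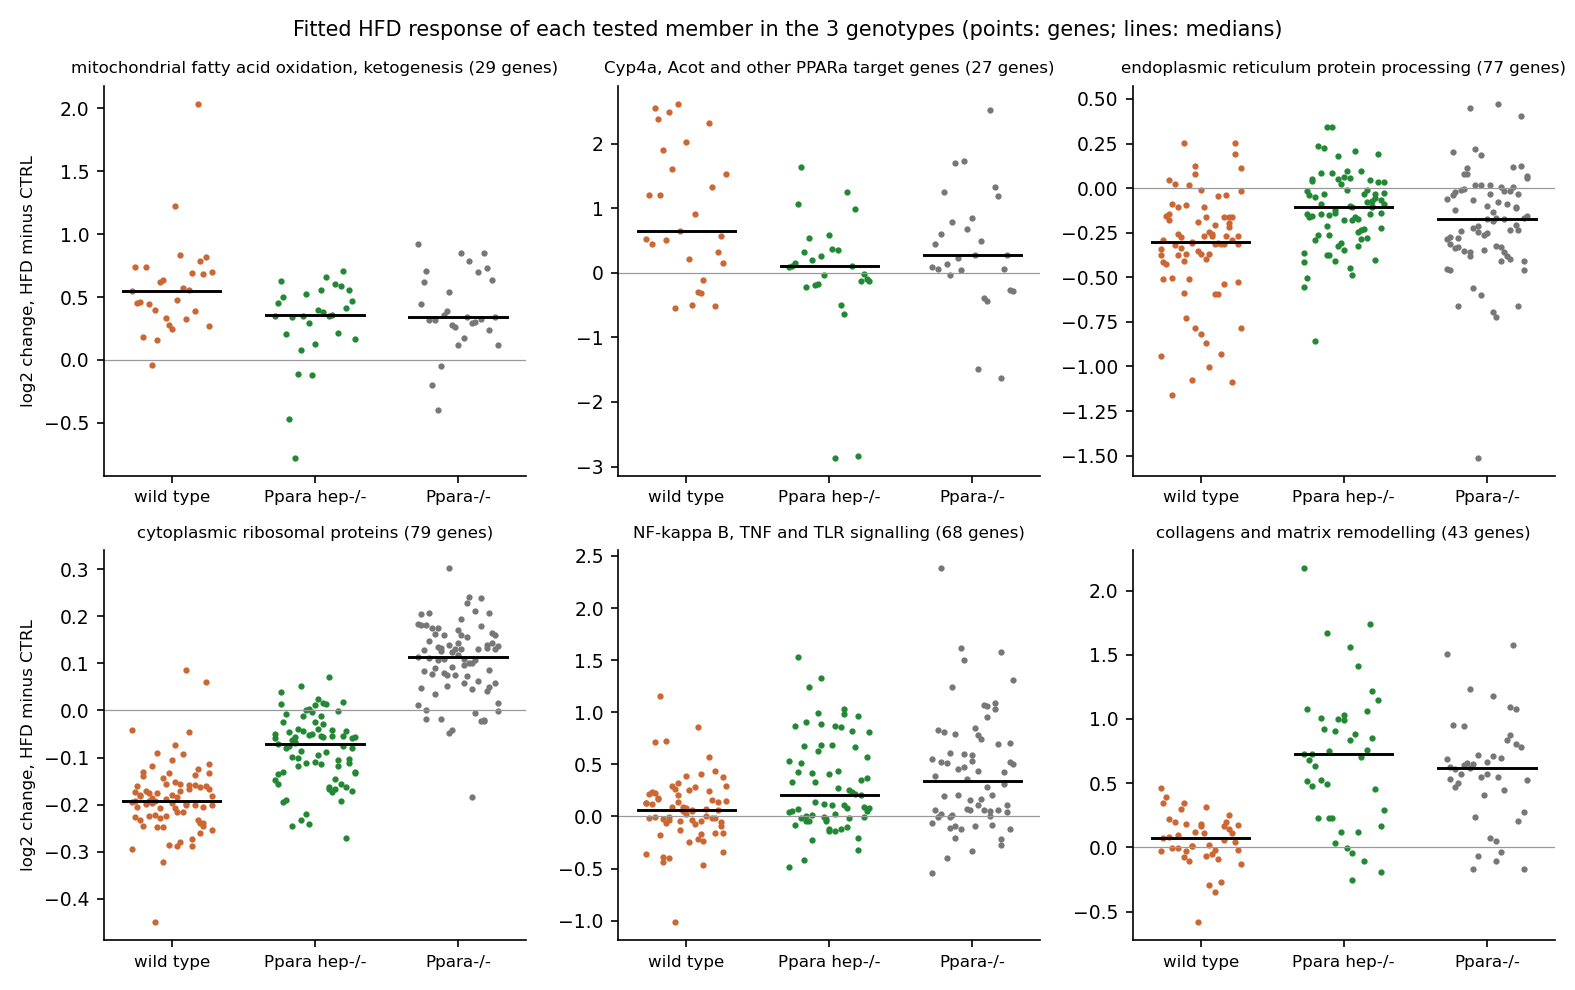
Log2 change (HFD minus CTRL) of each tested member of 6 gene lists in WT, Ppara hep-/- and Ppara-/- liver; each point is a gene and lines are medians. The mitochondrial oxidation genes have medians of 0.55, 0.36 and 0.34, and the ribosomal proteins of -0.19, -0.07 and 0.11.

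Of 21 lipogenic genes, 6 were down-regulated in WT (3 without array weights), 11 in Ppara hep-/- (median -0.57) and 8 in Ppara-/- mice (median -0.40), with 1, 2 and 2 up-regulated. Elovl6 changed by -1.43, -1.98 and -1.22 and Fabp5 by -3.00, -4.25 and -2.34, and for neither gene did the difference between WT and Ppara hep-/- or between WT and Ppara-/- mice pass the test. The mutants were not tested against each other. Scd1 changed by -1.23, -1.85 and -4.16, and WT differed from Ppara-/- by 2.92 ± 0.58 (adjusted p = 0.0006). Lpl fell in WT (-1.26) and rose in Ppara hep-/- (1.17) and Ppara-/- mice (1.43), differences of -2.43 ± 0.50 and -2.69 ± 0.51, of which the first was not called without array weights (adjusted p = 0.149).

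The remaining differences followed several patterns. Cfd rose in WT by 5.79 and changed by 0.58 in Ppara hep-/- and 0.64 in Ppara-/- mice, differences of 5.21 ± 0.95 and 5.14 ± 0.96 (adjusted p = 0.14 and 0.0456 without array weights). Cyp8b1 changed by 2.65, -0.08 and 0.10, differences of 2.73 ± 0.47 and 2.55 ± 0.48 (adjusted p = 0.109 and 0.0261 without array weights). Cyp2b9 rose in WT (4.77) and Ppara hep-/- mice (5.43) and changed by -0.66 in Ppara-/- mice, a WT difference of 5.43 ± 0.94 from Ppara-/-. Rnf145 changed by -1.31 in WT, against -0.50 in Ppara hep-/- and -0.10 in Ppara-/- mice.

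Ribosomal protein genes also differed, mainly between WT and Ppara-/- liver: 26 of 79 were down-regulated in Ppara hep-/- (median -0.07) and 36 up-regulated and 1 down-regulated in Ppara-/- liver (median 0.11). The WT response was lower than that of Ppara-/- for 69 genes, and for 39 without array weights. It was lower than that of Ppara hep-/- for 5 genes, below the 11.2% of all genes that differed, and for 0 without array weights. Of the 77 ER genes 22 fell in Ppara hep-/- and 37 in Ppara-/- liver (medians -0.11 and -0.17). The WT response was lower for 8 and 10 of the 77, no more than the 11.2% and 15.5% of all genes that differed. Without array weights it was lower for 0 and 3. Collagen and matrix genes were up-regulated in 26 of 43 cases in Ppara hep-/- (median 0.73) and 24 in Ppara-/- liver (median 0.62), against 0 in WT. The difference itself passed the test for 3 and 2 of the 43 genes, with a lower WT response, and for 0 and 2 without array weights. With the weights this was no more than the 11.2% and 15.5% of all genes that differed. Fgf21 rose by 1.25 in Ppara hep-/- and 2.53 in Ppara-/- mice, against a value of -0.11 in WT, a difference from Ppara-/- of -2.65 ± 0.57 (adjusted p = 0.00135, and 0.00788 without array weights).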

How the data were processed

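Liver RNA of 48 mice in 6 groups of 8 was hybridised to 1-colour Agilent arrays, from which per the labels and file headers the authors extracted intensities with Feature Extraction 10.10.1.1. The deposited scanner files give the intensity of each spot, and the deposited value table gives the authors' normalised log2 values, used as an alternative only. The 16 wild-type arrays came from mice taken as separate animals. Depth is not a property of arrays, and their number limits the precision.

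Median spot intensities were log2-transformed after outlier spots were set aside, averaged per probe, and quantile-normalised over 48 arrays. A probe was kept if at least 1 group had 4 of its 8 arrays marked as well above background for it (33323 probes, 22029 gene names). Of the called genes named, Cfd, Cidea and Adgrf1 were so marked on 8 CTRL and 7 HFD arrays, Vldlr on 7 and 7, Il1rn on 7 and 8, Grin3b and Gabrd on 6 and 8, and Abcd2 on 6 and 7. The brightest probe stood for a gene, and 5 genes, Cflar, Hadhb, Ndufa3, Ndufs3 and Rora, had a called probe of opposite direction. limma 3.58.1 (R 4.3.3) was fitted over all 6 groups with wash batch as a term and array weights, and p-values were adjusted by Benjamini-Hochberg over all probes. Simulated data with 200 changed probes among 33129 gave 71% recovery at a log2 change of 0.5 and 94.5% at 1 in the wild-type contrast, with 8.39% and 4.06% of the calls false, and without array weights 67.5% and 95.5% recovery with 16.7% and 15.1% false. The simulated noise was drawn with the fitted array weights, which favours the weighted fit. The simulation therefore cannot decide between weighted and unweighted fits of the real data.

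The lists and genes were chosen with earlier results of these data known. Named genes were the 15 per direction with the largest change among called genes without overlap, the 6 per direction with the largest change, all cholesterol and lipogenesis genes, up to 5 called and 3 other members of each further list, genes the study text names, and the 8 most variable genes per diet. Some genes this rule names are not reported here. Alternatives were other scalings, filters, batch terms, thresholds, unweighted fits, fits without single mice and, for lists, the probe of each gene with the smallest p. The 3 fits without the mice that stood apart were chosen after seeing the data.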

Additional observations from a re-analysis of the deposited data

Results flagged for a closer look

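In 11 of 416 groups of 8 mice tested, 1 mouse lay far from the other 7 relative to the range of its diet, where chance flags about 1 in 20 groups. Values are log2 deviations from the CTRL mice of the same wash batch. HFD mouse 6 was such a mouse for Ebp (-0.2264, nearest other 0.1221), Lpl (1.184, nearest -1.185), Psmb9 (1.694, nearest 0.8057) and Irf7 (-0.03783, nearest -0.6466), and for the mean over LXR genes (0.1331, nearest -0.1273) and over interferon-stimulated genes (0.6389, nearest -0.1963). CTRL mouse 6 was for Tmem97 (0.3877, nearest 0.05902) and for the mean over glucose genes (-0.3295, nearest -0.06627). The others were CTRL mouse 4 for Sod2 (0.3982, nearest 0.06881), HFD mouse 5 for Atf4 (-0.0493, nearest -0.2539), and HFD mouse 2 for the mean over triglyceride synthesis genes (-0.2307, nearest 0.1884).

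The HFD response of WT differed from that of the mutants by the test of the difference for 15 of the genes with large changes, with values as WT response minus mutant response on the log2 scale. Against both Ppara hep-/- and Ppara-/- mice, the differences were 2.595 and 1.665 for Msmo1, 1.303 and 1.268 for Tlcd2, 1.607 and 1.188 for Mvk, 2.437 and 1.329 for Nsdhl, 2.731 and 2.55 for Cyp8b1, and 5.21 and 5.145 for Cfd. They were negative for Cib3 (-1.705 and -2.501), Arfgap3 (-1.177 and -0.7674), Rnf145 (-0.8149 and -1.218) and Ptgds (-1.939 and -1.618). The difference from Ppara hep-/- passed the test for Cyp4a31 (2.356) and Ntrk2 (-2.341), and that from Ppara-/- for Cyp2b10 (4.631), Cyp2b9 (5.426) and Cidea (2.476). Without array weights the difference from Ppara hep-/- no longer passed for Cyp8b1, Cfd, Cib3, Rnf145, Ptgds, Cyp4a31 and Ntrk2, nor that from Ppara-/- for Arfgap3 and Cidea.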

How the results depend on the processing

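Of 145 called genes named in the text, 117 were called without array weights, 65 in the 16 WT arrays alone without weights, 53 within wash batch 2 and 130 to 145 when 1 mouse was left out, and none changed direction under any alternative. Without array weights 2218 probes were down-regulated, 2856 genes were called, and the response differed for 298 probes against Ppara hep-/- and 1740 against Ppara-/-. The 16 WT arrays alone without weights gave 1442 probes (740 up, 702 down) and 953 genes. Wash batch 1 gave 3852 probes, 1931 of them down-regulated, and 2702 genes, and wash batch 2 gave 666 (419 up, 247 down, 62.9% up) and 440 genes, each from 4 mice per diet. At an adjusted p of 0.01, 3481 probes (1752 up, 1729 down) and 2441 genes remained past the threshold, and without a filter on dim probes 2172 probes were down-regulated. The difference from Ppara hep-/- held for 2122 probes with slide as a block. The replicate block gave 5248 probes in WT and 2276 for the difference from Ppara hep-/-. Same-numbered mice did not all deviate together (r from -0.258 to 0.659 over 8 pairs, with the mice numbered 6, at 0.659, the 1 pair of 8 closest to its own partner), so the numbers were not taken as pairs. Leaving out 1 mouse gave 4610 to 6796 probes (2192 to 3124 up, 2418 to 3800 down, 43.8% to 48.2% up), 3191 to 4646 genes, and 2118 to 4518 and 3466 to 5509 probes for the differences from Ppara hep-/- and Ppara-/-, with 2118 without HFD mouse 7 and 2259 without CTRL mouse 3. Leaving out 1 mouse also took the down-regulated desaturases and elongases from 5 to 3 (CTRL mouse 4, HFD mouse 4 or HFD mouse 7), the down-regulated immediate early and heat shock genes from 5 to 3 (CTRL mouse 1, CTRL mouse 3 or HFD mouse 8), the down-regulated NF-κB genes from 4 to 2 (HFD mouse 7) and the down-regulated droplet genes from 2 to 0 (CTRL mouse 4). Of the genes of sterol sensing 4 were down-regulated instead of 1 without all 5 mice that stood apart and 3 without CTRL mice 6 and 8 and HFD mouse 6, and without HFD mice 1 and 2, 5 male-biased genes instead of 2. The calls lost were those of Scd1, Fasn, Ppp1r3g, Il1rn, Mt1 and Ppargc1a without HFD mice 1 and 2, of Fdft1, Gadd45g, Ppp1r3g, Acsl4 and Lipe without the other 3, and of Fdft1, Scd1, Ppp1r3g and Ppargc1a without all 5. With the probe of smallest p for each gene, a choice that favours calls, 7 proteasome subunits were up-regulated instead of 3. Oxidative phosphorylation subunits then gave 20 up-regulated and 3 down-regulated instead of 18 and 0, and cholesterol enzymes 12 and 1 instead of 9 and 0. Genes of the growth hormone axis and of hepatokines gave 3 up-regulated instead of 1. The causes were not tested.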
